A study of Mus musculus with 4 samples.

Results

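Cytoplasmic ribosomal proteins are the protein subunits of the ribosome that translates nuclear mRNA. Their genes were described here in primary mouse mesenchymal stromal cells (MSCs) after knockdown of Islr, which encodes Meflin, a protein found on and outside the cell. The members were every gene whose array probe carries a RefSeq accession with the symbol Rpl or Rps plus a number (with an optional a, l or x at the end), Rplp0 to Rplp2, or Rpsa, leaving out the Rps6k kinases and symbols marked as pseudogenes. This rule uses names only and found 81 genes with 168 probes among 21154 named genes with 28026 probes. Of these, 49 encode proteins of the large subunit (Rpl and Rplp) and 32 of the small subunit (Rps and Rpsa). They lie on 19 chromosomes, 4 of them on X.

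Total RNA was measured on 4 one-colour Agilent arrays that shared 1 slide. On 3 arrays the MSCs carried a retroviral short hairpin RNA against Islr, each with its own target sequence (hairpins 1, 2 and 3 after the numbers in the labels). On 1 array they carried a retroviral control hairpin, so retroviral transduction and a hairpin were common to all 4. All cells were at passage 5, and the labels give no genotype, strain or age. Nothing in the labels ties the cultures to 1 preparation of MSCs or to several. The hairpins serve as 3 replicates, and p-values then measure only the spread between these samples.

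On each array 59305 features were read, and between 49.4% and 53.8% of them were well above background. The 75th percentile of the signal was between 414.7 and 435.3 on the hairpin arrays and 442.5 on the control array, and no feature was saturated. Islr had a signal of 11, 70.5 and 3.44 on hairpins 1 to 3 and 454 on the control array. It was not above background on hairpins 1 and 3, so the fall there is a bound, at least 20.5-fold for hairpin 1 and at least 29.6-fold for hairpin 3. On hairpin 2 it was 6.33-fold lower. All 11 markers of MSCs and fibroblasts were above background on all 4 arrays. Of 9 macrophage and blood markers, Cd14, Cd34, Cd68, Csf1r and Itgam were above background on all 4. Adgre1, Kit, Lyz2 and Ptprc were not above background on any. The summed signal of these 9 was between 51065 and 57697 on the hairpin arrays and 59711 on the control array. Of 5 epithelial markers, Krt18 and Krt19 were above background on all 4, and Cdh1, Epcam and Krt8 on none. The sum of the 5 was 440, 528 and 1267 on hairpins 1 to 3 and 236 on the control array. Of 5 endothelial markers, Kdr and Pecam1 were above background on all 4, and Cdh5, Emcn and Tek on none. The part of such cells in the values below was not tested. In RNA from whole cultures, fewer cells of a type and less RNA per cell cannot be told apart.

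A ribosome holds a single copy of nearly every ribosomal protein, and cells keep the mRNAs of these proteins at matched and very high levels. Many vertebrate mRNAs of this family begin with a C followed by an unbroken run of pyrimidines, the terminal oligopyrimidine (TOP) tract, through which mTORC1 and LARP1 control their translation and storage. The output of the family is therefore often set after transcription, and an array of total RNA reads only the amount of mRNA. The assembly of new ribosomes, in contrast, takes place in the nucleolus and uses factors such as nucleolin, fibrillarin and dyskerin, whose genes are a common target of MYC.

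The tract is a feature that the choice by name did not use, and the start of a few members is shown to make it visible. RefSeq windows around annotated transcription starts were given for 60 of the 81 genes (72 windows). Each line below runs 5′ to 3′ on the gene's strand, from 30 bases before the annotated start to 20 bases from it (GRCm38.p6, RefSeq), and the capitals mark the first 5 transcribed bases. The windows of Rps18, Rps27, Rps10, Rplp2 and Rpl38 begin with the tract, and those of Rps27l and Rpl10l do not. These are examples and do not split paralogues from other members. Among windows not shown, that of the paralogue Rpl32l begins with the tract, and those of Rplp0 and Rps19 do not.
Rps18, chr17:33955646-33955695, minus strand: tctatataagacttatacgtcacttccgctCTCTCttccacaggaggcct
Rps27, chr3:90213629-90213678, minus strand: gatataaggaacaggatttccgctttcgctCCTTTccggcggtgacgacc
Rps10, chr17:27635225-27635274, minus strand: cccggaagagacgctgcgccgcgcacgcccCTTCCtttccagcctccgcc
Rplp2, chr7:141447621-141447670, plus strand: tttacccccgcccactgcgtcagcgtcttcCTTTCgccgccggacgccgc
Rpl38, chr11:114668550-114668599, plus strand: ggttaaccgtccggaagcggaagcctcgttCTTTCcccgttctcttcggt
Rps27l, chr9:66946056-66946105, plus strand: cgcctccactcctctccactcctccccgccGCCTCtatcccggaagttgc
Rpl10l, chr12:66284382-66284431, minus strand: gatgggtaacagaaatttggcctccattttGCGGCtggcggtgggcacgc
A C followed by 4 letters that are each C or T stood at the annotated start in 14 of the 72 windows (19.4%), against 2.51% of all 32851 windows. An annotated start can lie some bases from the true one, so the absence of the tract says only that these letters are not at this position. In the whole windows that RefSeq gives around each start, searched on both strands, CCGGAAG (the core letters of an ETS family site) was in 34.7% of member windows against 8.86% of all. AAGATGGC (core letters of a YY1 site, which can share its AAG with CCGGAAG) was in 9.72% against 2.75%. TATAAA was in 9.72% against 13.6%. A match is a description of letters, not of binding.

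Most of the family gave a high array signal. Of the 81 genes, 78 had a probe above background and were tested, and each of their 162 kept probes was above background on all 4 arrays. Apart from Rps4l, the signals of the tested genes ran from 21509 to 274727, and 77 of the 78 stood among the 5% of tested genes with the highest mean level. Probes differ in how brightly they bind, so this places the readings near the top of the arrays' range and does not rank the genes by abundance. Features of the 81 genes held 9.03%, 9.56% and 8.68% of the summed signal on hairpins 1 to 3 and 9.60% on the control array, from 0.298% of the features. The share on hairpin 2 was thus nearest to that of the control. Ribosomal protein genes have many processed copies in the mouse genome, and a probe may also bind RNA from such a copy, which these values do not separate.

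The test of hairpin arrays against the control array called no ribosomal protein gene. Levels below are log2 signal relative to the array's 75th percentile, and differences are log2, hairpin minus control. The genes were compared with limma over all 13567 tested genes with Benjamini-Hochberg adjustment, and the lone control array was taken to vary as the hairpins do. No member passed an adjusted p of 0.05 in either direction, and of all genes 0% passed as higher and 0.346% (47 genes) as lower. For 78 genes, the absence of calls is close to that share. The 47 depended on the settings. With only probes above background on all 4 arrays, as every kept member probe was, 0 of 12722 genes passed, and with quantile normalization 75 did. The smallest adjusted p of a member was 0.964 by limma, and none had an unadjusted p under 0.05, which 4.83% of all genes had. An exact permutation test of 3 arrays against 1 cannot give a p below 0.25.

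The differences themselves were small. On all 3 hairpins 60 of the 78 genes (76.9%) stayed within 1.2-fold of the control, as 26.9% of all genes did and 39.0% of the 1039 other genes at a log2 level of 5 or more. The count was 45 (27.7% of all genes) with a 75th percentile over detected probes and 67 (28.2%) with quantile normalization. Only 1 member was at least 1.5-fold lower on hairpin 1 (8.38% of all genes) and none was at least 1.5-fold higher there (4.05%). None reached 1.5-fold on hairpin 2, where 7.28% of all genes were that much higher and 9.35% lower. On hairpin 3, 1 member was at least 1.5-fold higher (9.68%) and none was that much lower (11.4%). The 2 genes past this fold were Rps27l and Rps4l, both paralogues.

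What the family showed was a shift shared by most of its members and different in sign between the hairpins. On hairpin 1 the median difference of the members was −0.13, against −0.01 for all genes, and 72 of 78 members were lower than the control (51% of all genes) and 6 higher (49%). On hairpin 2 the median was 0.08, against 0.00 for all genes, and 64 members were higher than the control (50.3%) and 14 lower (49.7%). On hairpin 3 the median was −0.12, against 0.05 for all genes, and 66 members were lower (44.9%) and 12 higher (55.1%). Hairpin 2 thus stood above the control for most of the family while hairpins 1 and 3 stood below it. The highest of the 4 arrays was hairpin 2 for 63 members (25.2% of all genes), hairpin 3 for 2 (34%), hairpin 1 for none (16.2%) and the control for 13 (24.6%). The lowest was hairpin 1 for 39 members (22.5%), hairpin 3 for 34 (24.5%), hairpin 2 for 1 (25.4%) and the control for 4 (27.6%). The other 1039 bright genes had medians of 0.01, 0.06 and 0.13 on hairpins 1 to 3, so as a set they did not share the lower values of hairpins 1 and 3. They were not matched in level to the members, whose median percentile by mean level was 99.3. Whether other genes as bright as the members shared the shift was not tested. Hairpin 2 was also the array on which Islr kept the most signal, 70.5 against 11 and 3.44, and whether the 2 are linked was not tested.

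**Figure D1:**
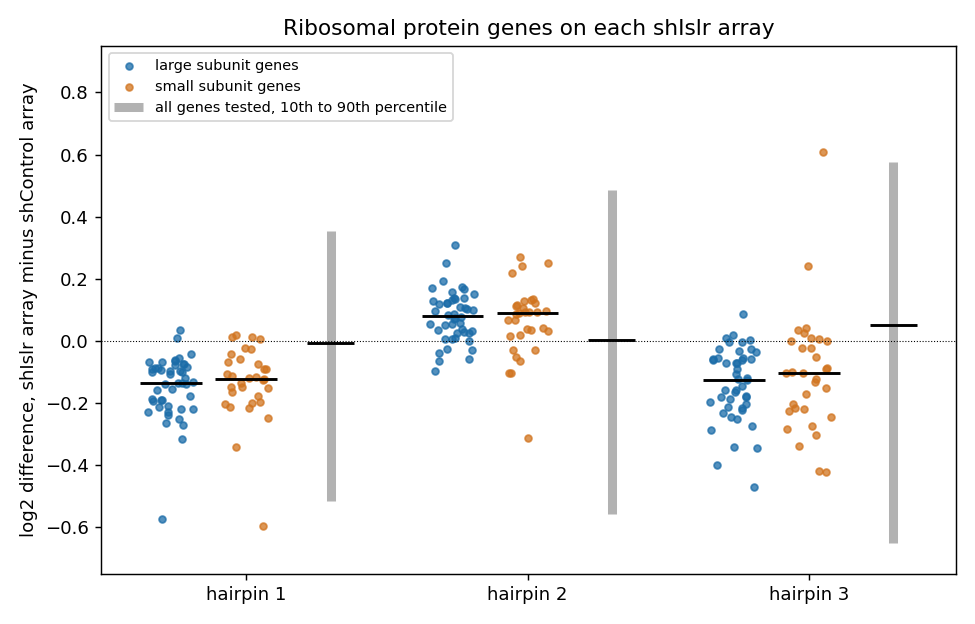
Log2 difference from the shControl array on each shIslr array, with 1 point for each of the 78 tested ribosomal protein genes (46 of the large subunit, 32 of the small), black lines at the medians and grey bars from the lowest to the highest decile of all 13567 tested genes. The points have medians of −0.13, 0.08 and −0.12 on hairpins 1 to 3 and lie inside the grey bars, except for Rps27l and Rpl30 on hairpin 1 and Rps4l on hairpin 3.

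Set directly against each other, the hairpins gave the same order. The control cancels within each gene, so this follows from the differences above and is no separate check. The median of hairpin 2 minus hairpin 1 was 0.20 over the members and 0.03 over all genes. Of the 78 members 77 lay above 0 (53.5% of all genes). The median of hairpin 2 minus hairpin 3 was 0.20 over the members and −0.03 over all genes, with 76 members above 0 (47.0%). Hairpin 3 minus hairpin 1 had a median of 0.01, and 0.06 over all genes. Here 42 members (53.8%) lay above 0, close to the 57.4% of all genes. Hairpin 2 was above both other hairpins for 76 of 78 members (33.8% of all genes), the exceptions being Rps24 and Rps4l. For the members, the array nearest to the control by root mean square difference was hairpin 2 (0.120), followed by hairpin 1 (0.178) and hairpin 3 (0.198). For the 12716 genes above background on all 4 arrays it was hairpin 1 (0.377), followed by hairpin 2 (0.428) and hairpin 3 (0.540). With the offset of the whole family taken away, the members' differences from the control had an SD of 0.108, 0.097 and 0.154 on hairpins 1 to 3.

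The size of this shift depended on how the arrays were put on 1 scale. With quantile normalization the member medians were −0.05, 0.00 and −0.04 on hairpins 1 to 3, and hairpin 2 stood above both other hairpins for 48 members (33.1% of all genes). With normexp background correction followed by quantile normalization they were −0.07, 0.00 and −0.07, with 49 such members (32.7%). Centring on the array median gave −0.12, 0.05 and −0.08, with 67 (26.2%). A 75th percentile over detected probes gave −0.12, 0.06 and −0.21, with 76 (35.9%). The medians of hairpins 1 and 3 were below 0 under all 5 scalings, while the higher median of hairpin 2 was at 0.00 under the pair that used quantiles.

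**Figure D2:**
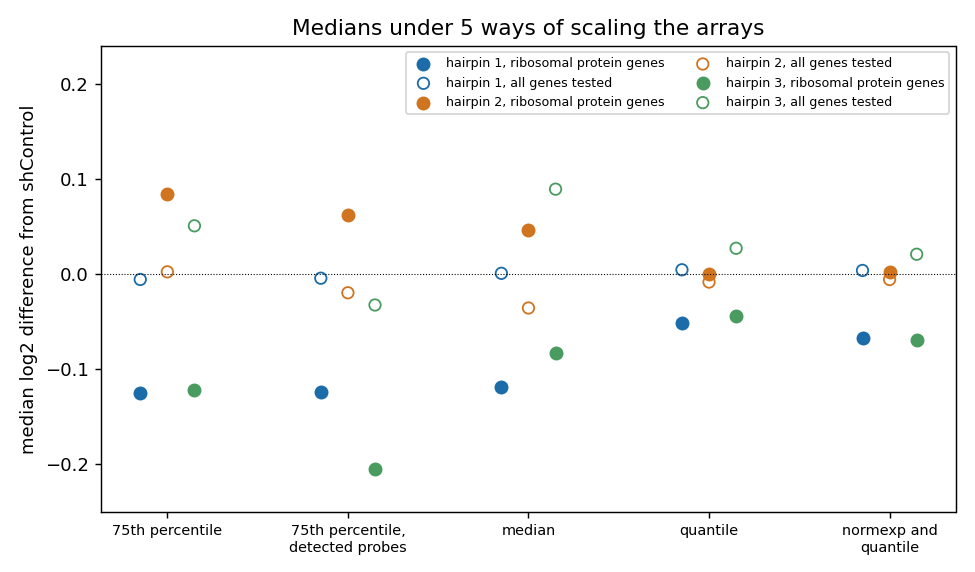
Median log2 difference from shControl on hairpins 1 to 3 over the 78 tested ribosomal protein genes (filled) and over all tested genes (open) under 5 ways of scaling the arrays. The filled points of hairpins 1 and 3 lie below 0 in each, and the filled point of hairpin 2 moves from 0.08 with the 75th percentile to 0.00 with quantile normalization.

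The medians of the subunits lay close together, and the difference between the subunits was not tested. The 46 tested genes of the large subunit had medians of −0.13, 0.08 and −0.13 on hairpins 1 to 3, and the 32 of the small subunit had −0.12, 0.09 and −0.10. Over the mean of the hairpins the medians were −0.06 for either subunit and 0.01 for all genes. The median SD between hairpins was 0.13 for the members and 0.20 for all genes. Only 4 members were higher than the control on all 3 hairpins (27.6% of all genes), and 13 were lower on all 3 (24.6%). The other 61 lay on both sides. With hairpin 2 left out, 64 members were lower than the control on both remaining hairpins (33.3% of all genes), and with hairpin 1 left out, 11 were higher on both (36.9%). The 3 differences share the control array, so its own error moves them together.

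**Figure D3:**
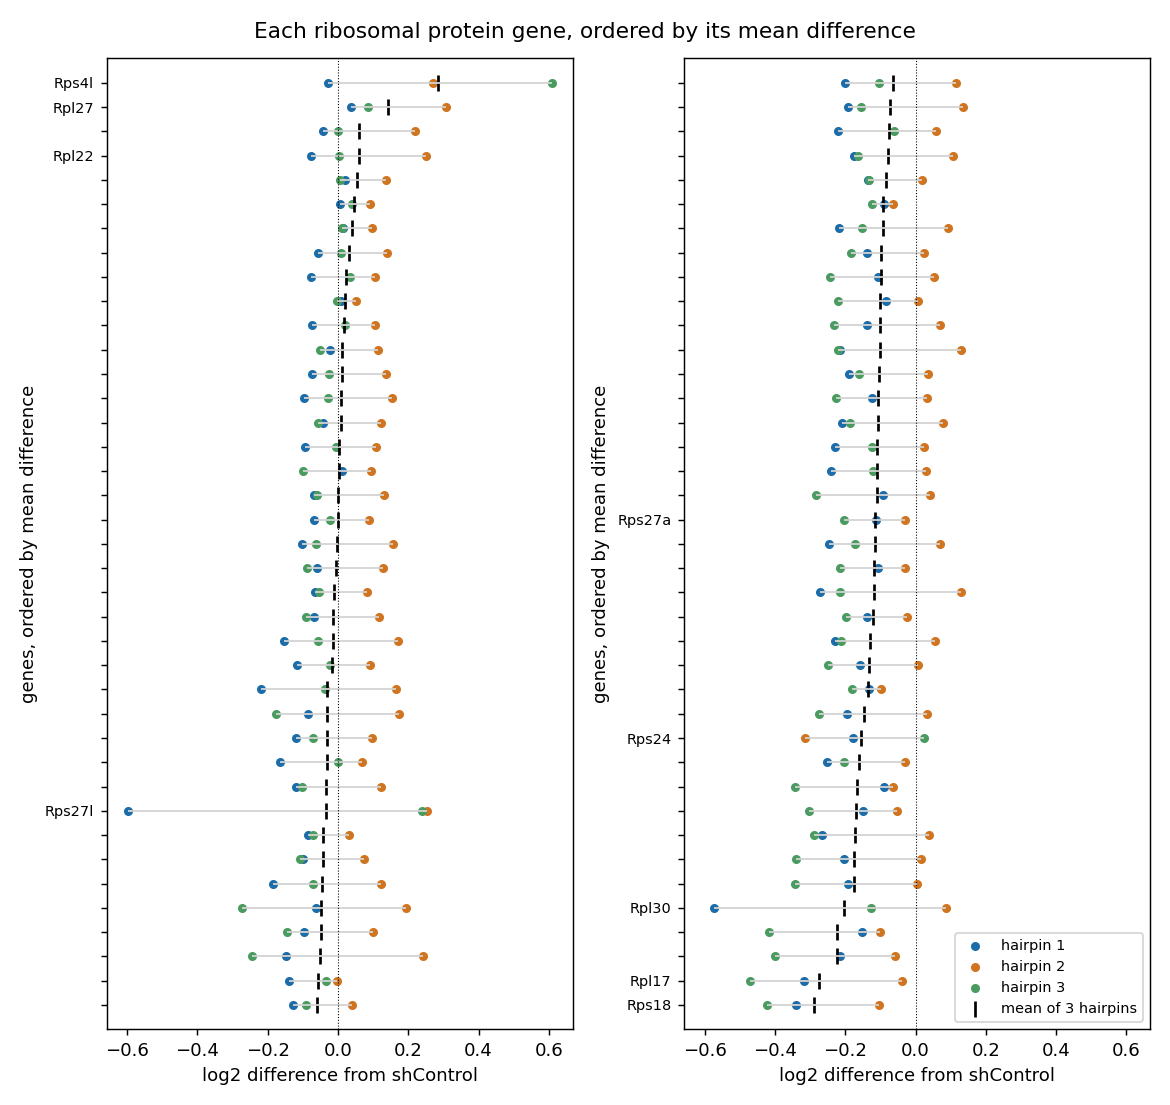
Log2 difference from shControl of each of the 78 tested ribosomal protein genes on hairpins 1, 2 and 3, with a bar at the mean, ordered by the mean from Rps4l (0.28) to Rps18 (−0.29), with some of the genes labelled. Hairpin 2 is the rightmost point for 76 genes, and Rps27l, Rpl30 and Rps4l have the widest spread.

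The ribosomal stalk, which recruits and activates the translation factors of each cycle, is formed by Rplp0 and the acidic proteins Rplp1 and Rplp2, with Rpl12 at its base. Rplp0, often used as a reference gene for quantitative PCR, was at 9.08, 9.22 and 9.19 on hairpins 1 to 3 and 9.22 on the control array, a mean difference of −0.06 ± 0.07 (SD, n = 3 hairpins). Rplp1 was at 8.35, 8.62 and 8.47 on the hairpins and 8.59 on the control array (−0.11 ± 0.14). Rplp2 was at 9.10, 9.28 and 9.20 on the hairpins and 9.18 on the control array (0.02 ± 0.09). In each of these genes hairpin 1 was the lowest array, and none of the 3 differences exceeded 1.18-fold. Rpl12 varied more, with 8.73, 8.98 and 8.52 on the hairpins and 8.79 on the control array (−0.05 ± 0.23). The mean difference of each stalk gene was smaller than its SD between hairpins.

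Rpsa, the small subunit protein also known as the laminin receptor, was at 8.73, 8.82 and 8.73 on hairpins 1 to 3 and 8.72 on the control array. Rpsa, Rps16 and Rpl27 were among the 4 members that were higher than the control on every hairpin by their brightest probe. Their other probes did not show this. The 3 other Rpsa probes and the 2 other Rps16 probes were below the control on hairpins 1 and 3 and above it on hairpin 2, and the second Rpl27 probe was at −0.04, 0.24 and 0.13. Rps16 of the small subunit head was at 8.73, 8.84 and 8.71 on the hairpins and 8.71 on the control array (0.05 ± 0.07). Rpsa and Rps16 stood less than 1.2-fold above the control on any hairpin. Rpl27 was at 8.02, 8.29 and 8.07 on the hairpins and 7.98 on the control array, a mean difference of 0.14 ± 0.15 with an adjusted p of 0.972 by limma. Its hairpin 2 value, 1.24-fold above the control, set it apart from its other hairpins, which lay within 1.06-fold.

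Of the 13 genes lower on every hairpin by their brightest probe, Rps18 and Rpl17 had the largest mean differences. Rps18, a protein of the small subunit head, was at 7.17, 7.40 and 7.09 on hairpins 1 to 3 and 7.51 on the control array. Its mean difference was −0.29 ± 0.17 (SD, n = 3 hairpins; adjusted p of 0.964 by limma). Rpl17, which lines the exit of the peptide tunnel, was at 7.21, 7.49 and 7.06 on the hairpins and 7.53 on the control array (−0.28 ± 0.22). Hairpin 2 was close to the control for Rpl17, at −0.04, and hairpins 1 and 3 at −0.32 and −0.47 were not. All 7 probes of Rpl17 had a mean difference below 0, between −0.31 and −0.16, and so did both probes of Rps18, at −0.29 and −0.18.

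Rpl10a, for which ribosomes of differing content have been described in mouse cells, was at 8.56, 8.72 and 8.37 on the hairpins and 8.77 on the control array (−0.22 ± 0.17). Rps29, a zinc-binding protein of the small subunit, was at 8.12, 8.17 and 7.85 on the hairpins and 8.27 on the control array (−0.22 ± 0.17). On the brightest probe of both, hairpin 3 was the lowest array and the control the highest. The other Rps29 probes had hairpin 2 slightly above the control, at 0.026 and 0.004. At least 1 dimmer probe of Rps18, Rpl17, Rpl10, Rps27 and Rps27a also had hairpin 2 above the control. The others of the 13 were Rpl10, Rpl29, Rpl36, Rpl37a, Rplp0, Rps9, Rps27, Rps27a and Rps28, with mean differences between −0.17 (Rps28) and −0.06 (Rplp0). Among them, Rpl10, which joins late to the large subunit and completes its active site, was at 9.13, 9.16 and 8.88 on the hairpins and 9.22 on the control array. Rps27a, made as a fusion with ubiquitin, was at 8.83, 8.91 and 8.73 on the hairpins and 8.94 on the control array.

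Rpl30 and Rpl3 had low means without standing on 1 side of the control. Rpl30 was at 7.20, 7.86 and 7.65 on the hairpins and 7.77 on the control array. Its mean of −0.21 ± 0.34 rested mostly on hairpin 1, with a difference of −0.57, and hairpin 3 was at −0.13. Its 3 probes disagreed, with mean differences from −0.21 to 0.27, the last on a dim probe annotated to another RefSeq transcript. Another bright Rpl30 probe gave −0.13, 0.10 and −0.06 on hairpins 1 to 3. Rpl3, an early assembling protein near the peptidyl transferase centre, was at 7.55, 7.75 and 7.40 on the hairpins and 7.74 on the control array (−0.18 ± 0.17). Rps6, the substrate of the S6 kinases, was at 7.72, 7.95 and 7.64 on the hairpins and 7.92 on the control array (−0.15 ± 0.16).

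Rpl4, Rps27 and Rpl29 were among the steadiest members, with an SD between hairpins of 0.03 to 0.04. Rpl4, whose extension reaches into the peptide tunnel, was at 7.31, 7.36 and 7.30 on the hairpins and 7.30 on the control array, so the 4 arrays hardly differed. Rps27 was at 8.44, 8.46 and 8.40 on the hairpins and 8.53 on the control array (−0.09 ± 0.03). Rpl29 was at 8.39, 8.43 and 8.35 on the hairpins and 8.53 on the control array (−0.14 ± 0.04). On the brightest probes of Rps27 and Rpl29 the control was the highest array and lay apart from 3 close hairpins, yet neither gene passed limma (adjusted p of 0.977 and 0.970).

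Rps24 departed from the family's order on its brightest probe only. That probe was at 8.49, 8.35 and 8.69 on the hairpins and 8.67 on the control array (−0.16 ± 0.17). By brightest probes it was the only member with hairpin 2 as the lowest of the 4 arrays. The other probes of Rps24 had hairpin 2 as the highest array, with differences of −0.16, 0.11 and −0.25 for one and −0.04, 0.06 and −0.02 for the other. Each Rps24 probe is annotated to a different RefSeq transcript, and whether the order differs between transcripts was not tested. Rps2, a protein at the mRNA entry channel, showed the family's order in wider form, at 8.14, 8.53 and 8.04 on the hairpins and 8.29 on the control array (−0.05 ± 0.26). Rps23 of the decoding centre was at 7.69, 7.95 and 7.73 on the hairpins and 7.73 on the control array (0.06 ± 0.14). In Rps23 the hairpin 1 and hairpin 3 arrays lay at or within 1.03-fold of the control and only hairpin 2 stood out.

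In people, loss of a single copy of any of several ribosomal protein genes causes Diamond-Blackfan anaemia, a failure of red cell production. The 12 members of that list had medians of −0.13, 0.10 and −0.16 on hairpins 1 to 3, near those of the whole family. Rps19, the gene most often affected in patients, was at 6.15, 6.46 and 6.22 on the hairpins and 6.37 on the control array (−0.09 ± 0.16). Rpl5 and Rpl11, which with the 5S RNA bind and inhibit MDM2, the ubiquitin ligase of p53, are also of this list. Rpl5 was at 6.54, 6.94 and 6.60 on the hairpins and 6.81 on the control array (−0.12 ± 0.22), and Rpl11 was at 8.49, 8.71 and 8.54 on the hairpins and 8.61 on the control array (−0.03 ± 0.11). Together with Rpl23 and Rpl26, which also bind MDM2, the medians were −0.14, 0.08 and −0.20. Of these 4 genes none lay on 1 side of the control on all 3 hairpins.

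Of the 6 paralogues that carry an l at the end of their symbol, 3 could be tested. Rps27l, a paralogue of Rps27 that is a target of p53, was at 5.70, 6.55 and 6.53 on hairpins 1 to 3 and 6.29 on the control array. It was 1.51-fold lower than the control on hairpin 1 and 1.19-fold and 1.18-fold higher on hairpins 2 and 3, which gave a mean of −0.04 ± 0.49, the largest SD among the 78 tested members. Rps27 itself had a difference of −0.09 on hairpin 1. Rps4l, which RefSeq annotates as a transcribed pseudogene, was at 3.73, 4.03 and 4.36 on the hairpins and 3.76 on the control array (0.28 ± 0.32), with hairpin 3 1.52-fold above the control. The X-linked Rps4x, which encodes the protein in the mouse, was at 7.35, 7.66 and 7.43 on the hairpins and 7.60 on the control array. Rpl32l differed from the control by −0.11, 0.05 and −0.24 on hairpins 1 to 3, and Rpl32 by −0.07, 0.08 and −0.05, with hairpin 2 the highest array in both.

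Rpl3l, Rpl10l and Rpl39l were not tested, because no probe of theirs passed the filter on dim probes. Rpl3l is known as the muscle form of Rpl3, and Rpl10l and Rpl39l as forms of the testis. Rpl3l had signals of 10.3, 4.85 and 5.67 on the hairpins and 4.77 on the control array, and Rpl39l had 5.16, 4.71 and 3.57 on the hairpins and 4.83 on the control array, none of them above background. For Rpl10l, 1 of 2 probes was not above background on any array. The other read 6.06, 4.82 and 46.9 on the hairpins and 4.84 on the control array, and only the hairpin 3 value was above background. This makes Rpl10l at least 2.48-fold higher on hairpin 3 than on the control array, by 1 probe and with no test.

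Several probes of a gene gave a check on the size of these differences. Of the 81 genes, 29 had 1 probe on the array, and 50 had several kept probes (134 in all). Within a gene, probes differed in their mean difference with an SD of 0.103, against an SD between the 78 genes of 0.090. Among probes at a log2 level of 5 or more (43 genes with several), the SD within a gene was 0.054. The range over probes was at most 0.2 in 42 of the 50 genes and over 0.2 in 8, among them Rps27a, Rpl22, Rpl30, Rpl15 and Rpsa. It was largest in Rps27a, from −0.12 on its brightest probe to 0.56 on a dim one. In Rps27a, Rpl22 and Rpl30 the dim probe is annotated to another RefSeq transcript than the brightest probe. The part of this in the range was not tested. For Rpl22, known in mice for its role in T cell development, the brightest probe gave 0.06 ± 0.17 (7.71, 8.04 and 7.79 on the hairpins and 7.79 on the control array) and the dim probe −0.45. The 144 probes at log2 5 or more had mean differences with an SD of 0.083, and the 18 dimmer ones had an SD of 0.257, from −0.45 to 0.56.

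**Figure D4:**
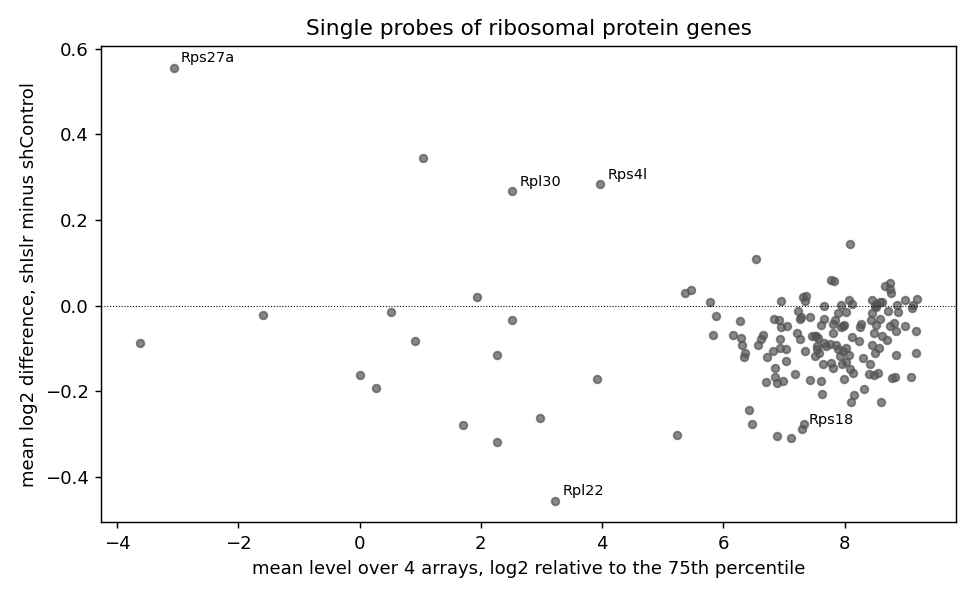
Mean log2 difference, shIslr minus shControl, of each of the 162 kept probes of ribosomal protein genes, against the probe's mean level over the 4 arrays (log2 relative to the 75th percentile). The 144 probes at a level of 5 or more lie between −0.31 and 0.14, and the 18 dimmer ones spread from −0.45 to 0.56.

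A probe of Rpl23 printed in 10 spots on every array showed how far a single array can resolve such steps. Its spots had a level of 3.86 ± 0.07, 3.96 ± 0.06 and 3.78 ± 0.06 on hairpins 1 to 3 and 4.04 ± 0.06 on the control array (SD over 10 spots). The differences from the control were −0.18 ± 0.030, −0.08 ± 0.027 and −0.26 ± 0.027 (SE over spots). Hairpin 2 was again the highest of the hairpins, but here it was below the control, while the brighter Rpl23 probe used above gave −0.14, 0.02 and −0.18. Over the 399 probes printed in 10 spots, the median SD was between 0.088 and 0.096 on the 4 arrays. These errors cover the spots of 1 hybridization and not the culture, the RNA or its labelling.

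Members whose RefSeq window begins with the TOP tract had values like those of the others. The 14 with the tract had medians of −0.10, 0.08 and −0.11 on hairpins 1 to 3, and the 43 tested members with a window but no tract at its start had −0.14, 0.10 and −0.12. The 16 tested TOP genes that encode other proteins had −0.13, 0.08 and −0.05, with 2 higher than the control on all 3 hairpins (27.6% of all genes) and 3 lower (24.6%). Among them Eef2, the translocation factor of elongation, differed by −0.17, 0.00 and −0.53. The ribosomal protein genes that the name rule leaves out gave −0.10, 0.04 and −0.09 (5 tested). Fau, made as a fusion with a ubiquitin-like protein, differed by −0.14, 0.00 and −0.15, and Rack1, a scaffold on the small subunit, by −0.10, 0.12 and −0.07.

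Other genes of ribosome production had a different pattern. Of 42 nucleolar ribosome assembly factors, 37 were higher than the control on all 3 hairpins and none was lower on all 3, against 4 and 13 of the 78 ribosomal protein genes. Of all genes 27.6% were higher and 24.6% lower on all 3, which is the share to set beside each count given here. Their medians were 0.20, 0.41 and 0.37 on hairpins 1 to 3. Rrp9, which binds the U3 small nucleolar RNA, differed by 0.61, 0.70 and 0.77, and Dkc1, the dyskerin pseudouridine synthase, by 0.40, 0.60 and 0.71. No assembly factor passed limma, where the smallest adjusted p was 0.818. Of 12 tested genes of RNA polymerase I and rDNA transcription, 7 were higher on all 3 and none lower, with medians of 0.21, 0.18 and 0.26. Of 77 tested mitochondrial ribosomal protein genes, 46 were higher on all 3 and 2 lower, with medians of 0.07, 0.14 and 0.27. The 37 initiation factors (18 higher, 6 lower) and the 10 elongation factors (3 higher, 1 lower) had median mean differences of 0.10 and 0.00. None of these genes passed limma either, and the difference between the lists was not tested.

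**Figure D5:**
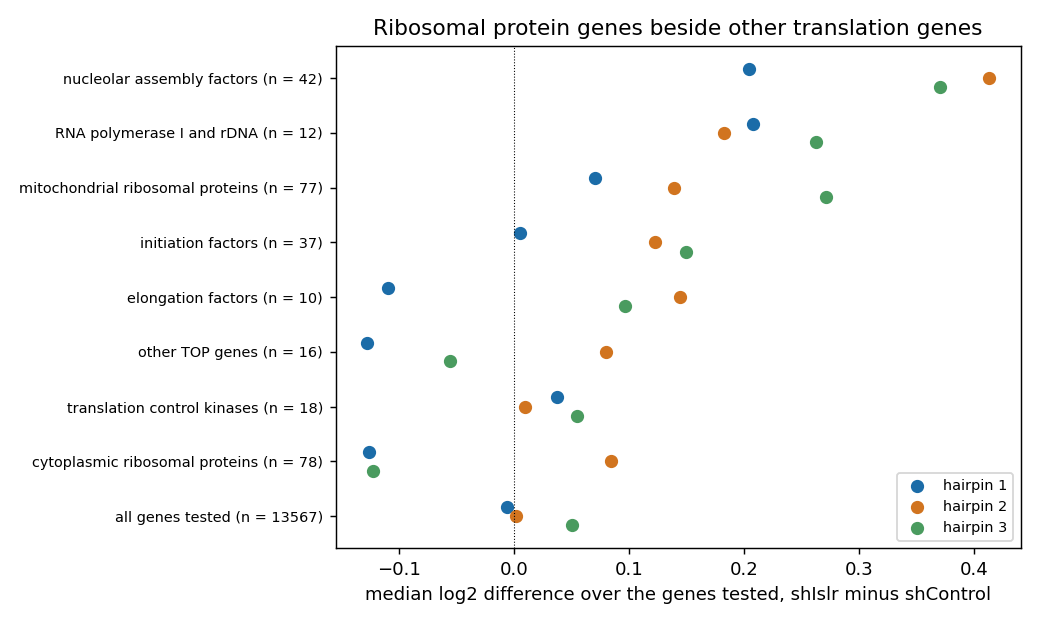
Median log2 difference from shControl on each hairpin for ribosomal protein genes, other lists of translation genes and all tested genes, with the number of genes tested in brackets. Nucleolar assembly factors lie between 0.20 and 0.41 on the 3 hairpins, and cytoplasmic ribosomal protein genes between −0.13 and 0.08.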

How the data were processed

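Per the file headers, the authors used Agilent Feature Extraction, version 11.5.1.1, on array design 028005 (build mm9, protocol GE1_1105_Oct12). The deposited values used here are its processed signal intensity per feature, already background-subtracted. The deposited series table held the same signal intensity times 1 constant per array, of unstated origin. The software's flags for signal above background, other columns of the deposited files, were used as given. Features of a probe were averaged, log2 values were computed from the deposited intensity and scaled by each array's 75th percentile. Accessions were matched to RefSeq symbols, leaving 27655 of 55681 probes unnamed. A probe was kept if the software called it well above background on the lone control or on each of the 3 hairpins (17843 named probes, 13567 genes), and the brightest probe stood for a gene. limma 3.58.1 (R 4.3.3, lmFit and eBayes) compared 3 hairpin arrays with 1 control array, two-sided, and was tested on simulated data. The members and gene lists were chosen with earlier results of these data known. Genes with values on every array were taken by a written rule: the stalk genes and Rpsa, the paralogues ending in l, the 6 largest mean differences each way, the 3 extremes each way per hairpin, the 4 smallest and 4 largest SDs, and genes below background. Some genes that this rule takes are not reported here. Rpl12, Rpl10, Rps27a, Rps4x, Rps6, Rps19, Rpl5, Rpl11 and Rpl32, and some examples from the other lists (Fau, Rack1, Mtor, Rps6kb1), were added for their roles after their values were seen.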

Additional observations from a re-analysis of the deposited data

How the results depend on the processing

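No paired analysis was possible because there was 1 control array and its label carries no hairpin number. No ribosomal protein gene passed limma under any alternative. The count higher on all 3 hairpins was 4 of 78 (27.6% of all genes). It became 12 with quantile normalization (27.21%), 11 with normexp and quantile (26.95%), and 1 with a 75th percentile over detected probes (24.52%). It ran from 4 to 11 when a hairpin was left out. The count lower on all 3 was 13 of 78 (24.6% of all genes). It became 31 with quantile normalization (25.02%) and 29 with normexp and quantile (25.31%). With median centring it was 24 (24.32%), and with a 75th percentile over detected probes 19 (27.84%). The members thus lay below the share of all genes in the main setting and with detected probes. They lay above it with both quantile settings and with median centring. The count lower ran from 13 to 64 when a hairpin was left out, with 64 reached without hairpin 2. The median of the mean difference, −0.06, ran from −0.14 without hairpin 2 to −0.02 without hairpin 1. The count with hairpin 2 above both others, 76, was 48 and 49 with the quantile settings. The 1 gene at least 1.5-fold lower on hairpin 1 (Rps27l) became 0 with quantile normalization, and the 1 higher on hairpin 3 (Rps4l) became 0 there, with the detected-probe percentile, or with Rps4l left out. Without a filter 1 gene was that much higher on hairpin 1 and 2 on hairpin 3. A 1.2-fold rule gave 6 lower on hairpin 1, 2 higher and 1 lower on hairpin 2, and 12 lower on hairpin 3. A 2-fold rule gave 0 lower on hairpin 1 and 0 higher on hairpin 3. The share of all genes past these other rules, or past 1.5-fold without a filter, is not given here. These counts are therefore not read against the other genes. Some mean differences changed sign. Rpl22 was −0.021 with normexp, −0.20 over all its probes and −0.038 to 0.127 with a hairpin left out. Rpl30 was 0.010 and Rpsa −0.072 over all probes. Rpl4 was −0.016 with detected probes and −0.00058 with normexp, and Rps24 was 0.055 with normexp. Rplp2 was −0.019 with detected probes and −0.028 to 0.062 with a hairpin left out. With a hairpin left out, Rps2 ran from −0.20 to 0.046, Rps23 from −0.021 to 0.11 and Rps27l from −0.18 to 0.25. The causes were not tested. The alternatives of leaving out Rps4l, the counts with hairpin 2 above both others and within 1.2-fold, and the medians of the other lists were chosen after seeing the data. Of the other values followed for genes of the written rule, none reversed. Some genes added for their roles also changed sign. The mean of Rpl12 was above 0 without hairpin 3, with −0.06 and 0.19 on hairpins 1 and 2. That of Rpl11 was above 0 without hairpin 1, with 0.10 and −0.07 on hairpins 2 and 3. For Rps27a the mean over all probes (−0.12, 0.56 and −0.05) was above 0. With 4 arrays and 1 control, the number of arrays limits the precision, and signals near background carry the widest spread.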

Other observations

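The kinases and binding proteins that act on the translation of ribosomal protein mRNAs are described here beside them. Of 18 tested genes of this list, 3 were higher than the control on all 3 hairpins (27.6% of all genes) and 1 was lower (24.6%), and none passed limma, with medians of 0.04, 0.01 and 0.06 on hairpins 1 to 3. Larp1, which binds the TOP tract, differed from the control by 0.11, 0.29 and 0.51 on hairpins 1 to 3. Eif4ebp1, the repressor of cap-dependent initiation that mTORC1 inactivates, differed by 0.10, 0.73 and 0.41. Both were higher on every hairpin, but the mean of Eif4ebp1, 0.41 ± 0.32 (SD, n = 3 hairpins), rested mostly on hairpins 2 and 3. Mtor, the kinase of that complex, differed by 0.34, −0.21 and 0.37, and Rps6kb1, the S6 kinase, by 0.13, −0.27 and 0.12. The list had no common order of the arrays. Hairpin 2 was the lowest array in Mtor, Rps6kb1 and others such as Eif2ak3. It was the highest array in Eif4ebp1, Rps6ka1, Rps6ka4 and others, as it was for most ribosomal protein genes. Myc differed by 0.22, 0.34 and 0.62, with an adjusted p of 0.964 by limma.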
